A study of Mus musculus with 8 samples.

Results

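The genes described here are 46 mouse genes of fatty acid oxidation and ketogenesis: the nuclear receptor gene Ppara, enzymes and carriers of mitochondrial and peroxisomal beta-oxidation, a ketone body enzyme and other targets of the receptor. They were taken by symbol from a list of names, among 52551 rows of a table of raw counts, and 45 of them had enough counts to be among the 8669 genes tested. The 8 liver libraries fall into 4 labelled PiZ and 4 labelled PiZ/Chop-/-. Both groups carry PiZ, a transgene for the Z variant of human alpha-1 antitrypsin, a mutant secretory protein that misfolds and is retained in the endoplasmic reticulum of hepatocytes. The PiZ/Chop-/- group lacks in addition Chop, the stress-induced transcription factor encoded by Ddit3. According to the labels, all were male C57BL/6 mice aged 6 weeks. The comparison thus sets absence of Chop against its presence among animals with the transgene, and a wild-type group that the study design names was not analysed here. Neither the promoter and cell type that drive the transgene nor the deleted part of Chop could be read from the labels. The labels give 4 extractions a group without saying that each library is a separate mouse, so the p-values below measure the spread between these libraries, which may be technical.

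Hepatocytes take up fatty acids, bind them to carrier proteins and activate them to acyl-CoA, which either enters lipid synthesis or is carried as acylcarnitine into mitochondria. There, and for very long and branched chains in peroxisomes, beta-oxidation shortens the chain step by step, and in fasting the liver turns the acetyl-CoA into ketone bodies for other tissues. PPAR-alpha, a nuclear receptor that binds fatty acids, pairs with the retinoid X receptor on direct repeats of a hexamer (DR1 elements) and raises the transcription of many of these genes.

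Library totals ranged from 1650260 to 3064385 counts. Levels are given as CPM, counts scaled to a common library size with factors from the trimmed mean of M-values (TMM), without a length correction because the reads come from the 3' end of transcripts. Differences are log2 fold changes of PiZ/Chop-/- over PiZ with their standard error (SE), tested with edgeR's quasi-likelihood test, and adjusted p-values follow Benjamini and Hochberg over all 8669 genes, with a threshold of 0.05. Ddit3 had 180 to 595 counts in the PiZ libraries and 3 to 9 in the PiZ/Chop-/- libraries, as the labels state. The human SERPINA1 transcript was present in all 8 but lower in PiZ/Chop-/-, at 1451 ± 374 CPM (SD, n = 4) in PiZ and 620 ± 70.9 CPM (SD, n = 4) in PiZ/Chop-/-, with groups that did not overlap. Its log2 fold change was -1.23 (SE 0.22, edgeR adjusted p = 0.00873), so the groups compared here differ in the level of the transgene transcript as well, and the part of this in the values below was not tested. The 10 hepatocyte markers summed to 36620 to 45330 CPM in PiZ and 42190 to 48250 CPM in PiZ/Chop-/-, ranges that overlap. PiZ 1 and PiZ 4 resembled their own group least, with mean correlations of log2 levels of 0.931 and 0.914, against 0.932 to 0.951 for the other libraries. In bulk liver, fewer cells of a type and less RNA per cell cannot be told apart.

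Of the 45 tested genes, 1 rose in PiZ/Chop-/- livers: Acsl1, which encodes a long-chain acyl-CoA synthetase. None passed the threshold in the lower direction. Over all 8669 genes, 0.335% were called higher (29 genes) and 0.692% lower (60 genes). Groups of libraries did not overlap for Acsl1 and Fabp1, both higher, and for Cd36, lower, that is 4.44% and 2.22% of the set, beside 3.66% higher and 4.22% lower among all genes tested. Without adjustment, 4 of the 45 had p under 0.05, 3 higher and 1 lower, or 8.89% against 13.1% of all genes. DESeq2 and limma-voom also called 1 gene higher, Acsl1, and none lower.

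Most differences were small. Log2 fold changes lay above 0 for 33 of the 45 genes and below 0 for 12, with a median of 0.19, while the median over all genes tested was -0.0016. For 31 of the 45, or 68.9%, the 95% interval stayed within a 2-fold change in either direction, against 61.0% of all genes. The median depended on which PiZ libraries entered, and with both PiZ 1 and PiZ 4 left out it was 0.039, with 26 genes above 0 and 19 below. PiZ 4 was the lowest of the 8 libraries for 19 of the 45 genes and PiZ 1 for 11. Leaving them out therefore lowers the median by construction, and the shift is a description.

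**Figure D1:**
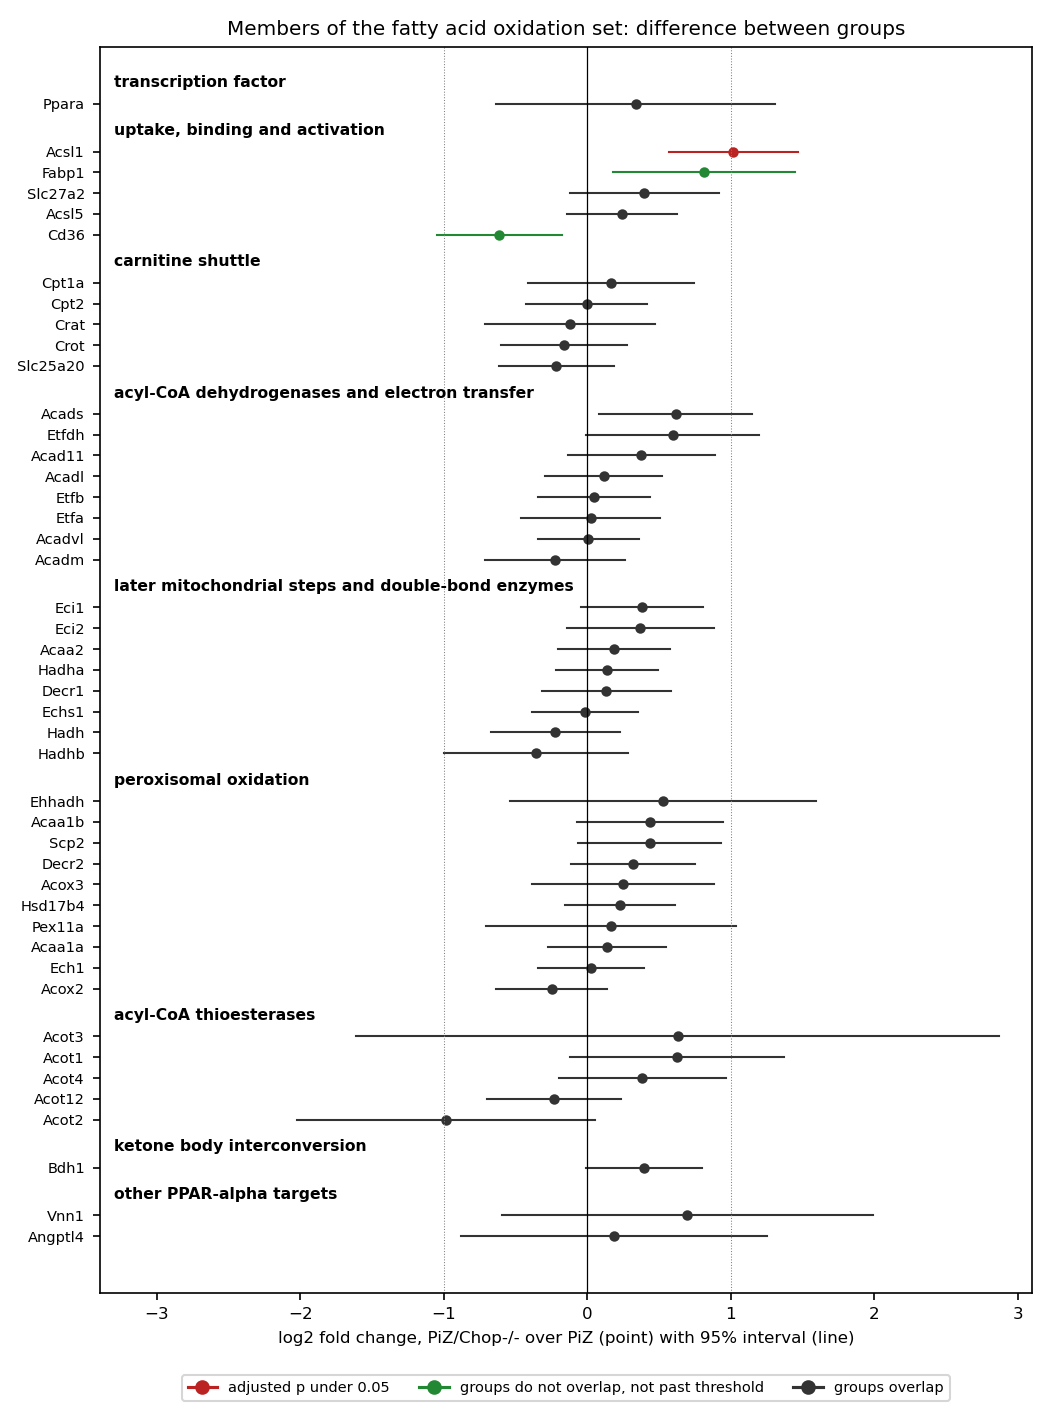
Log2 fold change of each of the 45 tested genes (horizontal axis, PiZ/Chop-/- over PiZ) with its 95% interval, grouped by role; dotted lines mark a 2-fold change and the solid line no difference. Acsl1 alone is past the adjusted threshold, Fabp1 and Cd36 have groups that do not overlap, and the intervals of Acot3 and Vnn1 are the broadest of the 45.

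Uptake, binding and activation held the 3 genes whose groups did not overlap. Acsl1, at chr8:46471037-46536051 of mm10 in the GENCODE M21 annotation, encodes the synthetase that couples long-chain fatty acids to coenzyme A, the step before both oxidation and lipid synthesis. Its level was 264, 410.5, 485 and 321 CPM in PiZ libraries 1 to 4 and 826, 647, 722 and 808 CPM in PiZ/Chop-/- libraries 1 to 4. Every PiZ/Chop-/- library was above every PiZ library, and the mean rose from 370.1 ± 97.2 CPM (SD, n = 4) to 751 ± 83 CPM (SD, n = 4). The log2 fold change was 1.02 (SE 0.21, 95% interval 0.57 to 1.47), with an adjusted p of 0.027 in edgeR, the gene being number 61 of 8669 by p. The difference stayed between 0.89 and 1.18 when each library was left out in turn, but the adjusted p passed the threshold only without PiZ 3, PiZ 4 or PiZ/Chop-/- 2. It was 0.0658 without PiZ 1, 0.058 without PiZ 2, and 0.0953, 0.0812 and 0.101 without PiZ/Chop-/- 1, 3 and 4.

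Fabp1 encodes liver fatty acid-binding protein, the abundant cytosolic carrier of fatty acids in hepatocytes. It stood at 392, 903, 1032 and 1465 CPM in PiZ 1 to 4 and at 1731, 1716, 1673 and 1540 CPM in PiZ/Chop-/- 1 to 4. PiZ 1 was far below the other libraries, PiZ 4 came close to the lowest PiZ/Chop-/- library, and the groups did not overlap. The log2 fold change of 0.81 (SE 0.30, 95% interval 0.18 to 1.45) did not pass the threshold (edgeR adjusted p = 0.265). It passed when no filter on low counts was applied (log2 fold change 0.83, edgeR adjusted p = 0.00626) and when both PiZ 1 and PiZ 4 were left out (0.79, adjusted p = 0.0469). Calls rose among all genes without the filter, to 175 higher and 182 lower of 19847, from 29 and 60 of 8669. PiZ 1 and PiZ 4 were the lowest and highest PiZ libraries for Fabp1, so leaving out both narrows the PiZ spread by construction. The adjusted p of that fit therefore adds no support for a Fabp1 difference. Without PiZ 1 alone the difference was 0.56 (edgeR adjusted p = 0.285).

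Cd36, a membrane receptor that takes up long-chain fatty acids and is also made by macrophages and endothelium, went the other way. Its level was 62.1, 54.9, 67.2 and 58.4 CPM in PiZ 1 to 4 and 32.5, 32.8, 42.7 and 50.3 CPM in PiZ/Chop-/- 1 to 4. All 4 PiZ/Chop-/- libraries lay below all 4 PiZ libraries, with a log2 fold change of -0.61 (SE 0.20, 95% interval -1.05 to -0.18, edgeR adjusted p = 0.207). Beside it, the 12 Kupffer cell and macrophage markers summed to 1054 to 1536 CPM in PiZ and 809 to 972 CPM in PiZ/Chop-/-, and 11 of the 12 had a log2 fold change below 0. None of the 12 was called, 5 had an unadjusted p under 0.05, all lower, and none was at 0 in every library. The 10 sinusoidal endothelial markers moved oppositely, from a sum of 304 to 440.4 CPM in PiZ to 444 to 496 CPM in PiZ/Chop-/-, with 9 of 10 above 0 and none called, 2 of them having an unadjusted p under 0.05. Of 10 adipocyte markers, Adipoq, Lep and Retn were at 0 in every library, and the sums were 36.5 to 61.7 CPM in PiZ and 33.9 to 46.9 CPM in PiZ/Chop-/-. Only 3 of these markers were tested and none was called. By unadjusted p under 0.05, 1 was lower (Fabp4, log2 fold change -0.87) and 1 higher (Adrb3, 1.31), each with groups that did not overlap. The part of these cell types in the Cd36 difference was not tested.

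The remaining uptake and activation genes had overlapping groups. Slc27a2, a fatty acid transport protein with very long-chain acyl-CoA synthetase activity, had a log2 fold change of 0.40 (SE 0.24), and Acsl5, a synthetase of mitochondria and endoplasmic reticulum, one of 0.24 (SE 0.18). The 5 genes together summed to 1261, 2239, 2342 and 2701 CPM in PiZ 1 to 4 and 3685, 3204, 3361 and 3417 CPM in PiZ/Chop-/- 1 to 4, sums to which Fabp1 contributes most.

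**Figure D2:**
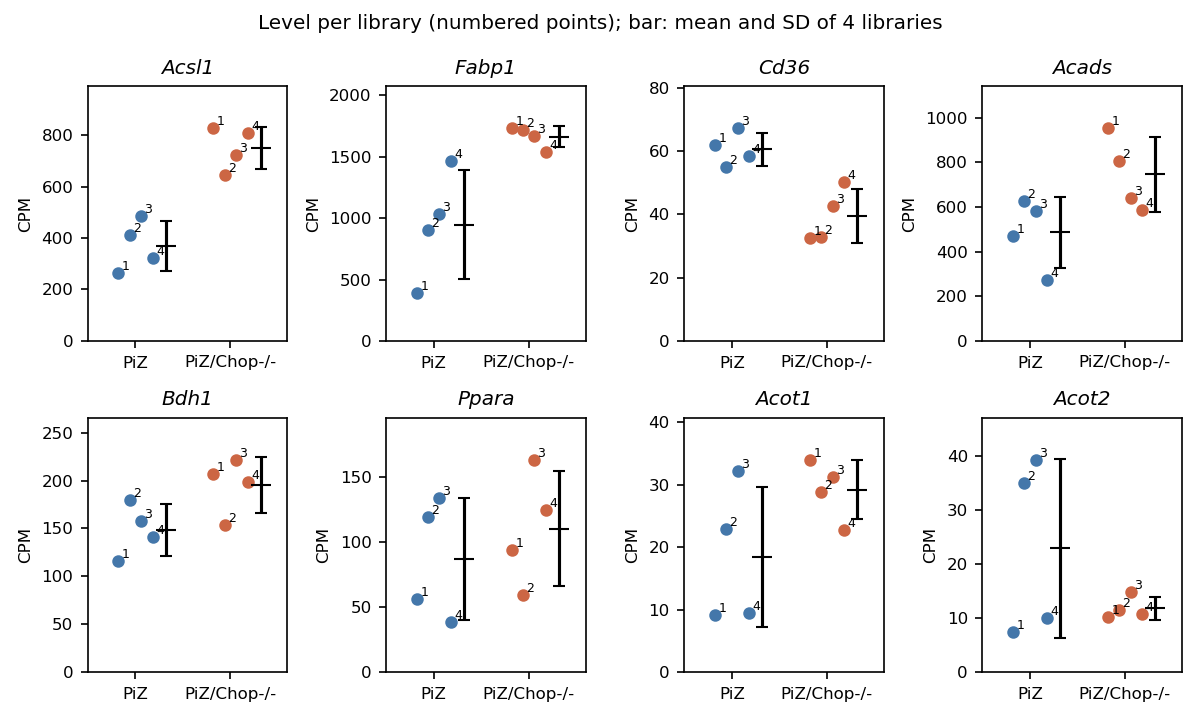
Level in CPM (vertical axis, from 0, on a scale of its own for each gene) of 8 genes in the 4 PiZ (blue) and 4 PiZ/Chop-/- (red) libraries; numbers are the replicate numbers and bars the mean and SD of 4 libraries. The groups are separate for Acsl1, Fabp1 and Cd36 and overlap for Acads, Bdh1, Ppara, Acot1 and Acot2, and for Acot2 only PiZ 2 and PiZ 3 stand above the other 6 libraries.

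The start-site sequences of the 3 genes with separate groups are shown because their differences had unlike directions and their windows differ in content for the element that PPAR-alpha binds. Windows run from 250 bases before to 50 bases after a transcription start in RefSeq (GRCm38.p6), are printed 5' to 3' on the strand of the gene, and carry in capitals any match to the DR1 letters AGGTCANAGGTCA on either strand with at most 2 mismatches. For Acsl1 the window at chr8:46470787-46471086 (plus strand) is printed, and neither it nor a second Acsl1 window at chr8:46490716-46491015 holds a match, the best alignments having 5 and 4 mismatches. The Fabp1 window is chr6:71199629-71199928 (plus strand), with a match on the opposite strand that begins 67 bases before the start. The Cd36 window is chr5:17835847-17836146 (minus strand), with one on the opposite strand that begins 63 bases before the start.
Acsl1: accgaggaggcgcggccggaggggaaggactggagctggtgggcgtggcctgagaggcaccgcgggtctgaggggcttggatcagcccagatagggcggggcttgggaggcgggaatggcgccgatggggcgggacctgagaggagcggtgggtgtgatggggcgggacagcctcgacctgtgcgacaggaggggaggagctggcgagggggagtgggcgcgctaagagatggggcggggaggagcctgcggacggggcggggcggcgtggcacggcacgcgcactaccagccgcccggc
Fabp1: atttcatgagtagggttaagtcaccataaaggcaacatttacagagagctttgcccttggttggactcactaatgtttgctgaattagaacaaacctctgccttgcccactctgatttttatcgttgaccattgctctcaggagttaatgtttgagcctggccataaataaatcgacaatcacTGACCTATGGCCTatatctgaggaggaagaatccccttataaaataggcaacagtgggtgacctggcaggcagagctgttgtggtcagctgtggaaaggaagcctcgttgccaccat
Cd36: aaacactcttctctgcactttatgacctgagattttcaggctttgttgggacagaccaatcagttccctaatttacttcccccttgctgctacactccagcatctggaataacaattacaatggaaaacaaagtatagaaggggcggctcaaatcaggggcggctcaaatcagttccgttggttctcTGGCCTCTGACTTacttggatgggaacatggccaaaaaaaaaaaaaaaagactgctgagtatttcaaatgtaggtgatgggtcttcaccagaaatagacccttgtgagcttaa

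Windows were found for 40 of the 46 genes, and 6 (Crat, Acaa2, Decr1, Hsd17b4, Vnn1 and Angptl4) had none in the table used. A DR1 match stood in the windows of 8 of the 40 genes, or 20%, against 4.40% of 27018 genes with a window of the same length and 3.86% of 32841 windows. Targets of the receptor were among the reasons for choosing the set, so these shares are a description. The 8 matches are set out here in the orientation of the motif, with mismatched bases in capitals, so that they can be compared with the levels.
Fabp1: aggCcataggtca
Cd36: aAgtcagaggCca
Acot12: aggtGagaggtca
Acot4: CggCcaaaggtca
Slc25a20: aggtGaaaggtcG
Etfa: aggGcaaaggtAa
Echs1: aggtcacGggtcC
Acox2: aggAcagaggtGa
Fabp1 and Acot12 each differ from the DR1 letters at 1 base and the others at 2. Genes with a match had log2 fold changes on both sides of 0, from -0.61 for Cd36 and -0.25 for Acox2 to 0.38 for Acot4 and 0.81 for Fabp1, while -0.23 was measured for Acot12, -0.22 for Slc25a20, -0.016 for Echs1 and 0.024 for Etfa. A C/EBP-ATF composite element of the kind that CHOP heterodimers can occupy, searched as TGATGNAAT on both strands without mismatches, was found in 1 of the 40, Echs1, or 2.50%, against 1.08% of all genes. The DR1 match of Echs1 lies elsewhere in that window. A match describes letters in this window and is no evidence of binding. The lack of a match, as for Acsl1, holds for these windows only, and sequence outside them was not searched.

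The receptor gene itself varied within both groups. Ppara was at 56.6, 119.5, 134 and 38.4 CPM in PiZ 1 to 4 and at 94.3, 59.2, 163 and 125 CPM in PiZ/Chop-/- 1 to 4, so that both groups held a library near the bottom and a library near the top of the range. The log2 fold change was 0.34 (SE 0.43, 95% interval -0.64 to 1.31, edgeR adjusted p = 0.792), an interval that includes a 2-fold rise, and without both PiZ 1 and PiZ 4 it was -0.20.

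Carnitine shuttle genes were the role with most values below 0, 4 of 5, with a median log2 fold change of -0.12 and none called. Cpt1a, the rate-limiting carnitine acyltransferase of the outer mitochondrial membrane, was at 249, 275, 271 and 109 CPM in PiZ 1 to 4 and 221, 185, 325 and 284 CPM in PiZ/Chop-/- 1 to 4. PiZ 4 stood alone at the bottom, and the log2 fold change of 0.17 (SE 0.27, adjusted p = 0.841 in edgeR) became -0.047 without it. Its inner-membrane partner Cpt2 had a log2 fold change of -0.0021 (SE 0.20), and the carrier Slc25a20, which exchanges acylcarnitine for carnitine, -0.22 (SE 0.19, 95% interval -0.62 to 0.19). Crot and Crat, which make carnitine esters of medium and short chains in peroxisomes and mitochondria, stood at -0.16 (SE 0.21) and -0.12 (SE 0.28). For Crot the levels were 434, 403, 438 and 255 CPM in PiZ 1 to 4 and 298, 369.6, 406 and 292 CPM in PiZ/Chop-/- 1 to 4, with PiZ 4 again the lowest library.

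Among the acyl-CoA dehydrogenases and their electron acceptors, 7 of 8 log2 fold changes lay above 0, with a median of 0.079, and none was called. Acads, the short-chain dehydrogenase, had the lowest p of the role. It was at 469, 624, 580.4 and 271 CPM in PiZ 1 to 4 and 951, 806, 638 and 586 CPM in PiZ/Chop-/- 1 to 4, where PiZ 4 was the lowest of all and PiZ 2 lay above PiZ/Chop-/- 4. Its log2 fold change was 0.62 (SE 0.25, 95% interval 0.084 to 1.15, edgeR adjusted p = 0.312), and 0.31 without both PiZ 1 and PiZ 4. Etfdh, which passes electrons from the electron transfer flavoprotein to ubiquinone, had 0.60 (SE 0.28, edgeR adjusted p = 0.384) at 22.2 and 33.4 CPM on average in PiZ and PiZ/Chop-/-.

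The long-chain and very long-chain dehydrogenases Acadl and Acadvl differed little, with log2 fold changes of 0.11 (95% interval -0.30 to 0.52) and 0.0073 (95% interval -0.35 to 0.36). Acadm, the medium-chain enzyme, was the gene of this role below 0, at -0.22 (SE 0.23). Acad11, a further member of the dehydrogenase family, had 0.37 (SE 0.24). The flavoprotein subunits Etfa and Etfb had 0.024 (SE 0.23) and 0.045 (SE 0.18), at mean levels for Etfb of 917 ± 52.4 CPM (SD, n = 4) in PiZ and 946 ± 159 CPM (SD, n = 4) in PiZ/Chop-/-. The Etfb value is uncertain, since 52.3% of the windows of 75 bases near its transcript ends also occur in the gene model Gm45233.

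The later mitochondrial steps, hydration, dehydrogenation and thiolysis, and the enzymes that handle double bonds had 5 of 8 log2 fold changes above 0 (median 0.13), and none was called. Eci1, an enoyl-CoA isomerase for unsaturated chains, had the lowest p, with 56.6, 67, 84.9 and 52.2 CPM in PiZ 1 to 4 and 74.8, 76.4, 96.3 and 93.6 CPM in PiZ/Chop-/- 1 to 4. PiZ 3 lay within the PiZ/Chop-/- range and the other PiZ libraries below it, and the log2 fold change was 0.38 (SE 0.20, 95% interval -0.043 to 0.81, edgeR adjusted p = 0.427). Acaa2, the mitochondrial thiolase, was at 614, 893, 832 and 781 CPM in PiZ 1 to 4 and 921, 932, 815 and 881 CPM in PiZ/Chop-/- 1 to 4, a log2 fold change of 0.19 (SE 0.18). The groups overlapped, and PiZ 1 was the lowest library.

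Hadha, the alpha subunit of the trifunctional protein, had a log2 fold change of 0.14 (SE 0.17) and its partner subunit Hadhb -0.36 (SE 0.30). The genes lie head to head on chromosome 5, and the Hadhb value is uncertain because 26.2% of its windows near the transcript ends occur in the gene models Gm13910 and Gm9108 too. The hydroxyacyl-CoA dehydrogenase Hadh stood at -0.22 (SE 0.21), the enoyl-CoA hydratase Echs1 at -0.016 (SE 0.17), the dienoyl-CoA reductase Decr1 at 0.13 (SE 0.21) and the isomerase Eci2 at 0.37 (SE 0.24). Of the Eci2 windows 5.55% are shared with Eci3.

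Peroxisomal genes had 9 of 10 log2 fold changes above 0, with a median of 0.24, and none was called. The thiolase gene Acaa1b was at 552, 958, 900.0 and 1383 CPM in PiZ 1 to 4 and 1184, 1440, 1228 and 1282 CPM in PiZ/Chop-/- 1 to 4, with PiZ 1 the lowest and PiZ 4 within the PiZ/Chop-/- range. Its log2 fold change was 0.44 (SE 0.24, edgeR adjusted p = 0.458), and that of its near copy Acaa1a 0.14 (SE 0.19, adjusted p = 0.808). Both values are uncertain, since 29.3% of Acaa1b windows near the transcript ends occur in Acaa1a and 23.2% of Acaa1a windows in Acaa1b.

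Scp2, whose products are a sterol carrier and a thiolase for branched chains, had the lowest p of this role, with 256, 246, 279.7 and 429.5 CPM in PiZ 1 to 4 and 359, 582, 375 and 321 CPM in PiZ/Chop-/- 1 to 4. PiZ/Chop-/- 2 and PiZ 4 were the highest libraries, and the log2 fold change was 0.43 (SE 0.23, edgeR adjusted p = 0.443), with 29.0% of its windows shared with the pseudogene Scp2-ps2. Pex11a, a membrane protein of peroxisome division and a target of the receptor, ranged from 184 to 724 CPM in PiZ and from 380.1 to 624 CPM in PiZ/Chop-/-, with a log2 fold change of 0.16 (SE 0.39). Both ends of the range belonged to PiZ, at PiZ 4 and PiZ 3.

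Of the bifunctional enzymes, Hsd17b4 had a log2 fold change of 0.23 (SE 0.18) and Ehhadh 0.53 (SE 0.50), at only 0.475 to 7.47 CPM over the 8 libraries, so that its 95% interval ran from -0.54 to 1.59. The dienoyl-CoA reductase Decr2 stood at 0.32 (SE 0.20) and the dienoyl-CoA isomerase Ech1 at 0.027 (SE 0.17). The branched-chain acyl-CoA oxidases split, with Acox3 at 0.25 (SE 0.30) and Acox2, the gene of this role below 0, at -0.25 (SE 0.18). In sum the 10 genes gave 1888, 2725, 2802 and 2914 CPM in PiZ 1 to 4 and 3174, 3307, 3105 and 2970 CPM in PiZ/Chop-/- 1 to 4, sums that did not overlap. The separation rested on Acaa1b: without it, a choice made after the values were seen, the sums were 1336, 1766, 1902 and 1531 CPM in PiZ and 1990, 1866, 1877 and 1688 CPM in PiZ/Chop-/-, which overlap. The median of the centred log2 levels of the 10 genes overlapped too, with PiZ 4 at 0.10 and PiZ/Chop-/- 4 at 0.076.

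**Figure D3:**
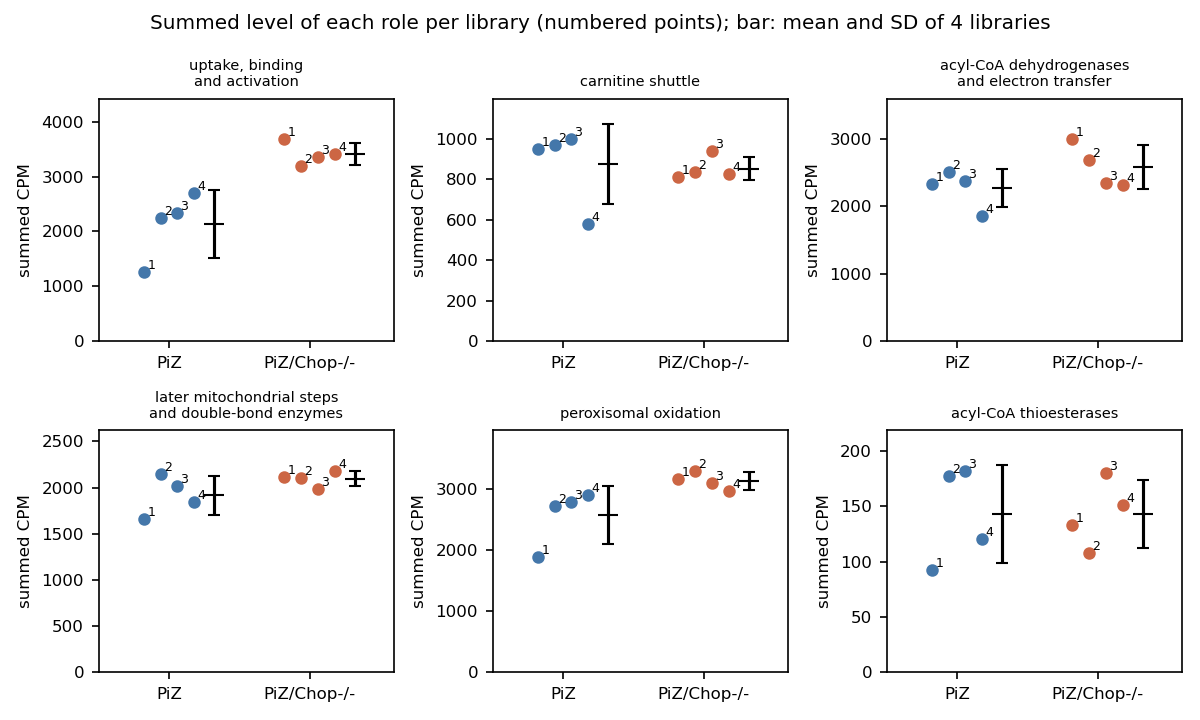
Summed CPM (vertical axis, from 0, on a scale of its own for each role) of the genes of 6 roles in each PiZ (blue) and PiZ/Chop-/- (red) library; numbers are replicate numbers and bars the mean and SD of 4 libraries. The sums of uptake, binding and activation and of peroxisomal oxidation are separate between groups, the latter only with Acaa1b in the sum, and the other 4 overlap.

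The acyl-CoA thioesterases, which release free fatty acids from coenzyme A, differed in direction between neighbours of a gene cluster on chromosome 12, and none was called. Acot1, the cytosolic enzyme, was at 9.23, 22.8, 32.1 and 9.49 CPM in PiZ 1 to 4 and 33.9, 28.7, 31.3 and 22.8 CPM in PiZ/Chop-/- 1 to 4, a log2 fold change of 0.62 (SE 0.35, edgeR adjusted p = 0.471). Acot2, the mitochondrial enzyme next to it, was at 7.38, 35, 39.2 and 9.97 CPM in PiZ 1 to 4 and 10.2, 11.5, 14.9 and 10.7 CPM in PiZ/Chop-/- 1 to 4, a log2 fold change of -0.98 (SE 0.48, 95% interval -2.02 to 0.056, edgeR adjusted p = 0.403). For both genes PiZ 1 and PiZ 4 were the lowest libraries of all 8, and PiZ 2 and PiZ 3 lay within the PiZ/Chop-/- range for Acot1 and above it for Acot2.

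Leaving out both PiZ 1 and PiZ 4 moved the Acot2 difference to -1.65 (edgeR adjusted p = 0.00551), past the threshold, and that of Acot1 to 0.078. As the lowest libraries for both genes were the ones left out, the shifts follow from that choice. The adjusted p of this fit therefore adds no support for an Acot2 difference. Of the Acot1 windows near the transcript ends, 4.69% also occur in Acot2 transcripts, whereas none of the Acot2 windows was shared. The Acot1 value is thus the less certain in its assignment of reads, while by SE the Acot2 difference is (0.48 against 0.35). The peroxisomal Acot3 was low and variable, at 6.77, 12.6, 3.86 and 0 CPM in PiZ 1 to 4 and 1.39, 2.3, 17.4 and 14 CPM in PiZ/Chop-/- 1 to 4 (log2 fold change 0.63, SE 0.98). Acot4 had 0.38 (SE 0.27), and these paralogs share 1.34% and 2.00% of windows with Acot5 or Acot6. Acot12, a cytosolic acetyl-CoA hydrolase outside the cluster, stood at -0.23 (SE 0.22).

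Bdh1, the mitochondrial dehydrogenase that interconverts acetoacetate and beta-hydroxybutyrate, was at 116, 179.7, 158 and 141 CPM in PiZ 1 to 4 and 207, 154, 221 and 199 CPM in PiZ/Chop-/- 1 to 4. PiZ/Chop-/- 2 lay inside the PiZ range and the other PiZ/Chop-/- libraries above it, with a log2 fold change of 0.39 (SE 0.19, 95% interval -0.008 to 0.80, edgeR adjusted p = 0.387). Vnn1, a pantetheinase that recycles the vitamin part of coenzyme A, had 0.70 (SE 0.56, adjusted p = 0.654 in edgeR). Its levels ran from 16.1 to 49.2 CPM in PiZ and from 14.4 to 85.9 CPM in PiZ/Chop-/-, so that the lowest and highest libraries were both PiZ/Chop-/-. Angptl4, a secreted inhibitor of lipoprotein lipase, had 0.19 (SE 0.47). Pdk4, the kinase that shuts off pyruvate dehydrogenase in fasting, had 13 counts over the 8 libraries, 0 in 4 of them and at most 5 in any, and was not tested, so that a difference was not detectable at this depth.

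Levels also differed among the libraries of 1 group. The SD of log2 levels was larger in PiZ than in PiZ/Chop-/- for 30 of the 45 genes, or 66.7%, against 56.0% of all genes tested, with median SDs of 0.37 and 0.24 in the set and 0.35 and 0.31 over all genes. PiZ 4 was the lowest of the 8 libraries for 19 of the 45 genes (42.2%, against 21.4% of all genes) and PiZ 1 for 11 (24.4%, against 13.4%). The 46 genes summed to 8409, 11180, 11160 and 10240 CPM in PiZ 1 to 4 and 13340, 12520, 12480 and 12310 CPM in PiZ/Chop-/- 1 to 4. That is 1.04% ± 0.143 (SD, n = 4) of a PiZ library's counts and 1.22% ± 0.0337 (SD, n = 4) of a PiZ/Chop-/- library's. The sums did not overlap, nor did they without Fabp1, at 8017 to 10280 CPM in PiZ and 10770 to 11600 CPM in PiZ/Chop-/-. By contrast, the median of the genes' centred log2 levels, in which each gene counts alike, overlapped between groups, at -0.24, 0.096, 0.049 and -0.25 in PiZ 1 to 4 and 0.12, 0.020, 0.11 and 0.11 in PiZ/Chop-/- 1 to 4.

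**Figure D4:**
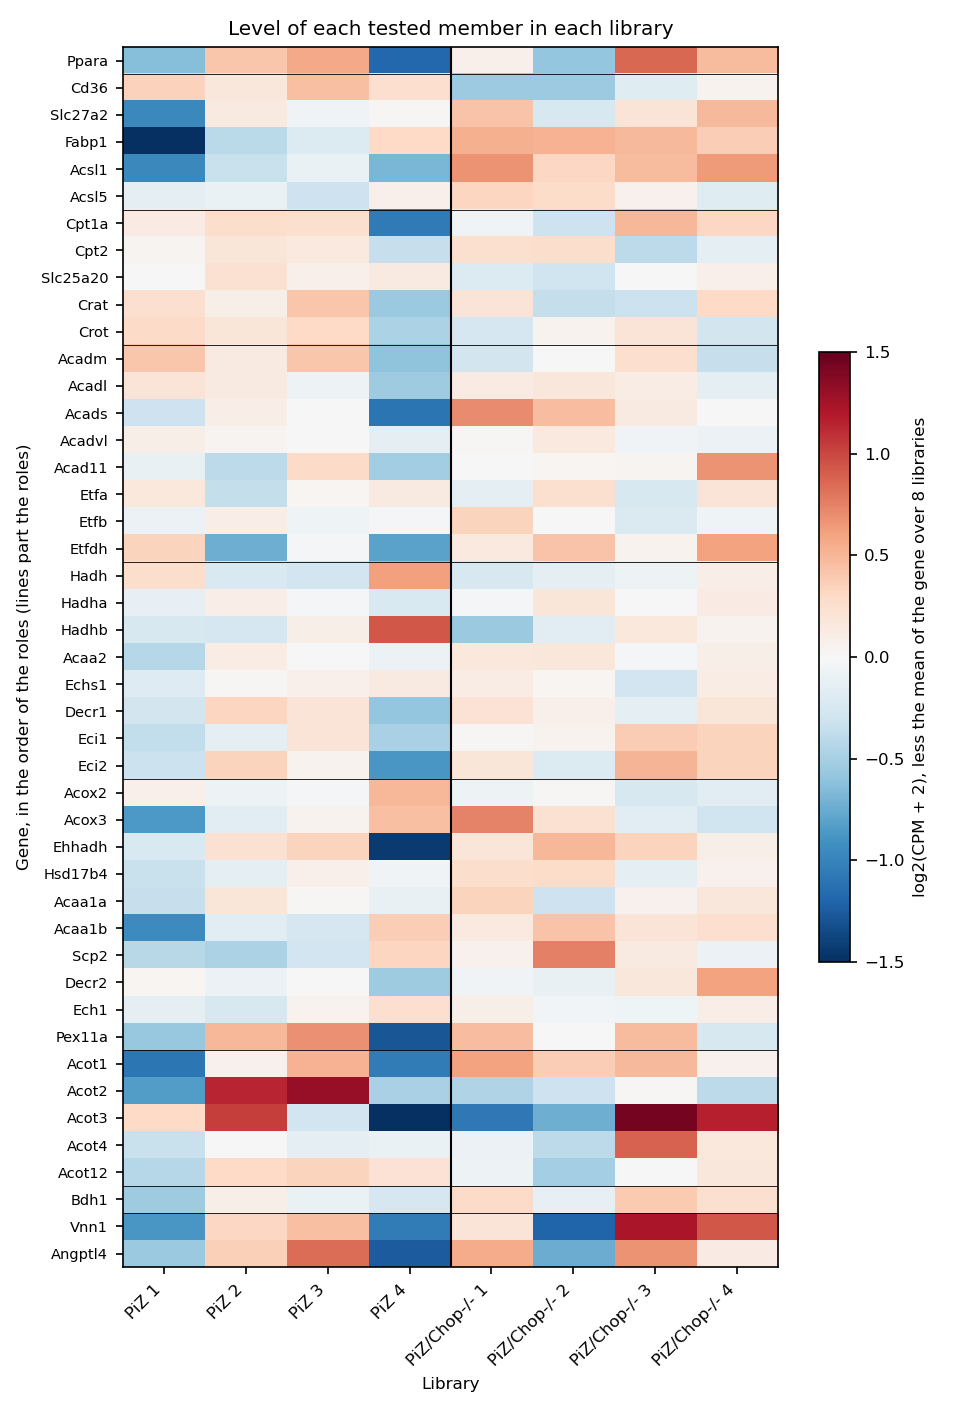
Log2(CPM + 2) of each tested gene in each library (columns), less the gene's mean over the 8 libraries (colour, red above and blue below the mean, with values beyond the scale in the end colours); horizontal lines part the roles and the vertical line the groups. PiZ 4 is the lowest library for 19 genes and PiZ 1 for 11.

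A pattern noticed after the values were seen ran across the groups. For Ppara the 3 lowest libraries were PiZ 1, PiZ 4 and PiZ/Chop-/- 2. The same 3 were the lowest for Eci2, Acaa1a, Bdh1, Vnn1 and Angptl4, that is 5 of the other 44 genes, or 11.4%, beside 288 of the other 8668 genes tested, or 3.32%. Ppara set the pattern, so these shares are a description. Angptl4 was at 38.1, 73.3, 103 and 22.8 CPM in PiZ 1 to 4 and 85, 33.3, 91.8 and 62.4 CPM in PiZ/Chop-/- 1 to 4, and Vnn1 at 18.4, 44.7, 49.2 and 16.1 CPM and 40.9, 14.4, 85.9 and 69.4 CPM in the same order. The summed level of 16 circadian clock genes, which includes the abundant Tef, was lowest in these libraries as well, at 299.5, 798, 698 and 401 CPM in PiZ 1 to 4 and 964, 256, 867 and 929.8 CPM in PiZ/Chop-/- 1 to 4. Without Tef, left out after the values were seen, it was 194, 368, 332 and 241 CPM in PiZ 1 to 4 and 458, 195, 401 and 421 CPM in PiZ/Chop-/- 1 to 4, with the same 3 libraries lowest. By gene, these libraries were the lowest for 7 of the 16 (Per3, Dbp, Tef, Hlf, Nr1d1, Ciart and Bhlhe41) and the highest for 1, Arntl, which had at most 11 counts, while Cry1 and Nfil3 were highest in PiZ/Chop-/- 2.

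The labels give neither the time of day nor the feeding state at collection. Of 13 tested genes of fed-state lipogenesis, 10 had log2 fold changes above 0, with a median of 0.39, and 1 was called higher, Mlxipl, a carbohydrate-responsive transcription factor (log2 fold change 1.09, SE 0.24, edgeR adjusted p = 0.0394). Among these 13, 3 had an unadjusted p under 0.05, all higher. The fed-state sums were 1487 to 3441 CPM in PiZ and 3024 to 6828 CPM in PiZ/Chop-/-, ranges that overlap, with PiZ/Chop-/- 2 the highest. For 13 tested genes of the fasting response the median was -0.18, with 6 above 0, 7 below and none called, 1 having an unadjusted p under 0.05. The fasting sums were 1904 to 2941 CPM in PiZ and 1322 to 3141 CPM in PiZ/Chop-/-, which overlap, and PiZ/Chop-/- 2 was the highest there too. The part of the clock and feeding genes in the levels was not tested.

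**Figure D5:**
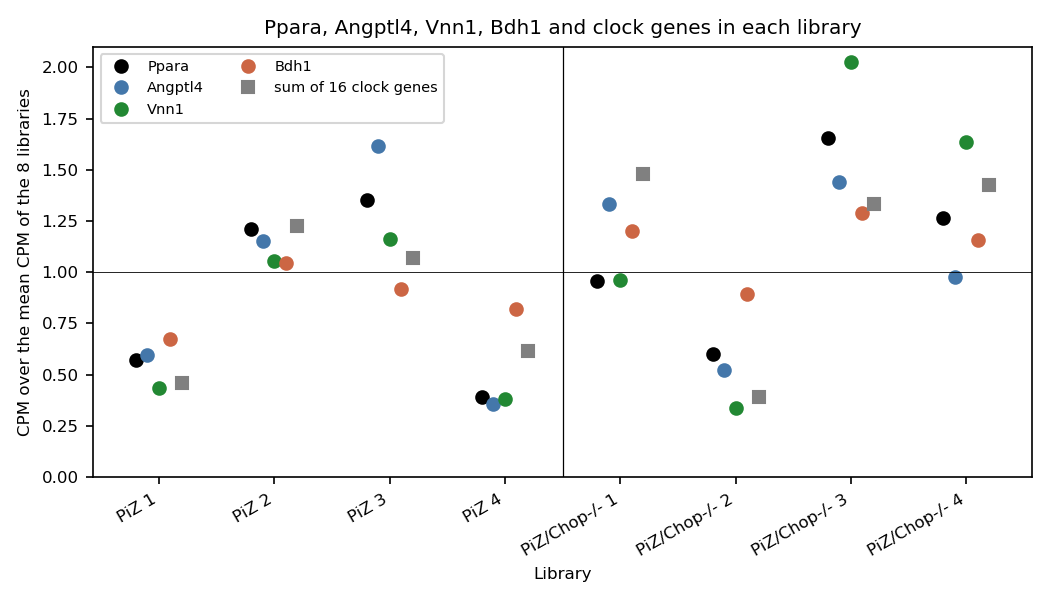
CPM of Ppara, Angptl4, Vnn1 and Bdh1 and the summed CPM of 16 clock genes in each library (horizontal axis), each divided by its mean over the 8 libraries (vertical axis, from 0; the line at 1 is that mean and the upright line parts the groups). All 5 quantities are below their mean in PiZ 1, PiZ 4 and PiZ/Chop-/- 2.

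In the wider pathway, whether any gene was called depended on the method, the filter and the libraries. Of 146 further genes of PPAR-alpha signalling, peroxisomes and ketone and short-chain acyl metabolism, 143 were in the files and 120 tested, and edgeR called none, while 22 had an unadjusted p under 0.05 (16 higher and 6 lower, or 18.3% against 13.1% of all genes). DESeq2 called 1 higher and 1 lower, beside 94 higher and 114 lower of all 10343 genes it tested. From limma-voom there was no call, beside 18 higher and 42 lower of 8669. Without a filter on low counts, edgeR called 4 higher and 4 lower, beside 175 higher and 182 lower of 19847. The count was 2 lower without PiZ/Chop-/- 2, beside 102 lower of 9009. It was 1 higher without PiZ 4, beside 54 higher of 8928. Without both PiZ 1 and PiZ 4 it was 1 lower, beside 80 lower of 9291. Of the 120, 71 lay above 0 and 49 below, with a median log2 fold change of 0.092, and groups did not overlap for 8 higher (6.67%, against 3.66% of all genes) and 2 lower (1.67%, against 4.22%).

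Among 16 tested partners and co-regulators of the receptor, Nrip1, a co-repressor of nuclear receptors, had the lowest p. It was at 17.8, 21.4, 20.6 and 5.22 CPM in PiZ 1 to 4 and 24.6, 39.7, 27.3 and 23.3 CPM in PiZ/Chop-/- 1 to 4, a log2 fold change of 0.81 (SE 0.34, edgeR adjusted p = 0.337), and the groups did not overlap. Acsl4, a synthetase that prefers arachidonic acid, had the lowest p of 35 further targets. Its level was 75.7, 80.6, 111 and 122 CPM in PiZ 1 to 4 and 37.6, 75.3, 45.2 and 38.2 CPM in PiZ/Chop-/- 1 to 4, a log2 fold change of -1.0 (SE 0.25, edgeR adjusted p = 0.0775), opposite in sign to that of Acsl1. The groups did not overlap, with PiZ/Chop-/- 2 just below PiZ 1, and the gene passed the threshold without PiZ/Chop-/- 2 (-1.27, adjusted p = 0.0119), with DESeq2 (adjusted p = 0.0316) and without a count filter (adjusted p = 0.00241).

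Hao1, the peroxisomal glycolate oxidase of the liver, had the lowest p of 33 peroxisomal genes. It stood at 363, 535, 491 and 246 CPM in PiZ 1 to 4 and 1193, 817, 499 and 710.4 CPM in PiZ/Chop-/- 1 to 4, where PiZ/Chop-/- 3 fell inside the PiZ range. The log2 fold change was 0.98 (SE 0.28, edgeR adjusted p = 0.136), and the gene passed the threshold without a count filter (adjusted p = 0.000412). For Acsl4 and Hao1 alike, that setting is one in which calls rose among all genes. The 36 tested genes of ketone body, malonyl-CoA and short-chain acyl metabolism had a median log2 fold change of 0.043, with 19 above 0 and 17 below.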

How the data were processed

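Total liver RNA was made into 8 QuantSeq 3' mRNA libraries and read from one end with 75 bases, per the labels' protocols. The files as deposited hold raw, whole-number counts for each gene, per the file headers, made with STAR, HTSeq and the build mm10 per the submitters' processing notes. For versions, annotation, strand, multiple matches and PCR copies the settings were not given in the sources used here. Depth therefore limits counting error only. Reads shared by near-identical or overlapping genes may have been split or dropped.

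Symbols came from GENCODE mouse M21 (52403 of 52550 mouse IDs found), which may differ from the authors' release. In R 4.3.3, edgeR 4.0.16 kept 8669 genes (filterByExpr by group, minimum count 10), scaled by TMM and tested PiZ/Chop-/- against PiZ with a robust quasi-likelihood fit without covariates, a step tested on simulated data. The SE is the log2 fold change divided by the square root of F, and intervals are at 95%. Genes were named by a rule: every listed gene by role, all past the threshold, and the lowest p of each further list. 1 gene that the rule names is not reported here. The genes and lists were chosen with earlier results of these data known.

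Same-numbered libraries did not deviate together, so no block entered the comparison. Alternatives were other scalings, DESeq2 1.42.0, limma-voom 3.58.1, other filters (none, or 5 CPM in 4 libraries), a non-robust fit, a fit without the 20 most abundant genes, a replicate block, each library left out in turn, and PiZ 1 and PiZ 4 left out together. Because PiZ 1 and PiZ 4 were the lowest libraries for many listed genes, the last fit moves those differences by construction. Shared sequence was checked with windows of 75 bases in the last 500 bases of protein-coding transcripts.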

Additional observations from a re-analysis of the deposited data

Results flagged for a closer look

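For 2 of 92 gene-by-group sets of 4 libraries, the gap between an extreme library and its neighbour exceeded Dixon's 95% critical value as a share of the group's range. Chance alone gives about 1 in 20 such sets. Cpt1a, the carnitine acyltransferase of the outer membrane, was at 109 CPM in PiZ 4, with the other PiZ libraries at 249 to 275 CPM and a gap of 0.845 of the range. Acad11, of the acyl-CoA dehydrogenase family, was at 72.2 CPM in PiZ/Chop-/- 4, with the others at 44.6 to 46.2 CPM and a gap of 0.943.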

How the results depend on the processing

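Under 19 alternatives, 27 of the 45 tested genes kept the direction of their log2 fold change and 18 changed it under at least 1; Acsl1, Fabp1, Cd36, Acads and Bdh1 are among the 27. The number called higher was 1 except with no filter on low counts (2), with the replicate block (0), and when libraries were left out in turn (0 to 1). The number called lower was 0, also throughout the leave-one-out fits (0 to 0), except with both PiZ 1 and PiZ 4 left out (1, Acot2), where Fabp1 was the gene called higher. PiZ 1 and PiZ 4 were the lowest libraries for Acot2, so that call follows from leaving them out. For Fabp1 they were the lowest and highest PiZ libraries, so leaving them out narrows the PiZ spread by construction. With both left out, Acsl1 was at 0.75 (edgeR adjusted p = 0.0728). The median log2 fold change ran from 0.12 to 0.27 in leave-one-out fits and was 0.039 without both PiZ 1 and PiZ 4, 0.12 with library size only, and 0.23 with limma-voom. Numbers in the titles did not pair the libraries (correlations of deviations -0.051 to 0.049, 0 of 4 over 0.1; PiZ 1 and PiZ/Chop-/- 4 alone correlated best with their own number). The fit with the replicate block gave a median of 0.23 and put Acsl1 at 1.05 (adjusted p = 0.0569), and it changed no other call of a listed gene.

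The genes whose direction turned ranged from values near 0 to Ehhadh (0.53), Hadhb (-0.36), Ppara (0.34), Acox3 (0.25) and Hadh (-0.22), none of them called, and the cause was not tested. Cpt2 was 0.0067 with RLE scaling, 0.0098 with DESeq2, 0.012 with no filter and 0.014 with the 20 most abundant genes left out. With library size only, where the median of all genes was -0.077, Acadvl was -0.068, Etfa was -0.055, Etfb was -0.039, Ech1 was -0.057. Without both PiZ 1 and PiZ 4, Ppara was -0.20, Cpt1a was -0.10, Acadvl was -0.015, Hadh was 0.17, Decr1 was -0.17, Ehhadh was -0.0054, Acaa1a was -0.013, Pex11a was -0.39, Angptl4 was -0.37. In leave-one-out fits, log2 fold changes ran from -0.091 to 0.12 for Cpt2, -0.043 to 0.14 for Ech1, -0.084 to 0.11 for Etfa, -0.28 to 0.032 for Crat, -0.078 to 0.072 for Echs1, -0.047 to 0.30 for Cpt1a, -0.0021 to 0.20 for Acadl, -0.036 to 0.043 for Acadvl, -0.49 to 0.026 for Hadhb, -0.082 to 0.47 for Pex11a, -0.066 to 0.61 for Angptl4, -0.074 to 0.12 for Etfb, -0.018 to 0.49 for Acox3. SERPINA1 lost its call without PiZ/Chop-/- 3 (-1.19, edgeR adjusted p = 0.0575).

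With 4 libraries a group and 1650260 to 3064385 counts each, genes under about 10 CPM such as Ehhadh and Acot3 have intervals broader than a 2-fold change, and Pdk4 was too low to test. Intervals of genes with more counts reached beyond a 2-fold change too, such as Fabp1 (0.18 to 1.45), Ppara (-0.64 to 1.31) and Pex11a (-0.70 to 1.03). Low counts are thus not the only source of broad intervals.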
